A study of Rattus norvegicus with 12 samples.

Results

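Voltage-gated calcium channels let calcium enter the cardiomyocyte when its membrane depolarizes, and the message level of their subunits was examined in adult rat ventricular myocytes (ARVMs) that overexpressed the orphan nuclear receptor NR4A2. The set held the 10 genes Cacna1c, Cacna1d, Cacna1g, Cacna1h, Cacnb1, Cacnb2, Cacnb3, Cacna2d1, Cacna2d2, and Cacna2d3, chosen by gene name among 17301 genes, and all 13 transcripts listed under these names among 18752. ARVMs were isolated from hearts of male Sprague-Dawley rats and transduced at 50 MOI (multiplicity of infection) with an adenovirus carrying green fluorescent protein (Ad-GFP) or full-length human NR4A2 (Ad-h-NR4A2). Each group comprised 6 samples taken 48 h after transduction, numbered 24 to 29 in both, and every sample thus carried an adenovirus and an overexpressed protein. No untransduced cells were included, and the age of the animals is not given in the sources used here.

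The α1 subunit forms the pore, senses voltage, and sets the channel type. Cacna1c and Cacna1d encode L-type pores, of which that of Cacna1c is the main one of the adult ventricular myocyte and triggers calcium release from the sarcoplasmic reticulum during each beat, whereas Cacna1g and Cacna1h encode the T-type pores known from pacemaker cells and the developing heart. The β subunits (Cacnb genes) bind the L-type pore from the cytosol, promote its delivery to the membrane, and tune its gating. The α2δ subunits (Cacna2d genes) sit on the outer face of the membrane and raise surface expression of the channel.

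Levels are given as deposited, in FPKM, the fragments on a transcript scaled to its length and to the mapped fragments of the sample. The steps between low values put the depth of single samples between 18800000 and 28000000 fragments. The labels were checked with Nr4a2 itself, which averaged 0.884 ± 0.309 FPKM (SD, n = 6) in Ad-GFP samples and 524 ± 70.3 in Ad-h-NR4A2 samples. This is the level on the rat transcript NM_019328, whereas the virus carried human NR4A2. Fragments of the human and the rat message were not told apart. The cardiomyocyte identity was checked with Tnnt2, a troponin of the thin filament, which averaged 7189 and 5992 FPKM. The markers of other cell types were far lower. The summed level ranged from 5.84 to 30.4 FPKM over both groups for 8 fibroblast markers, from 4.39 to 17.1 for 5 endothelial markers, and from 8.75 to 24.2 for 5 smooth muscle and pericyte markers. For 5 macrophage and leukocyte markers it differed between groups, at 6.15 to 17.4 FPKM with Ad-GFP and 39.0 to 45.9 with Ad-h-NR4A2.

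The promoters of the genes that carried the main result are shown first. RefSeq windows of the GRCr8 assembly, from 250 bases before to 50 bases after a transcription start, matched 7 of the 10 genes with 10 windows. The 3 windows below belong to the gene that fell and to the genes that were upregulated, and capitals mark the GC box GGGCGG on either strand, a common element of promoters without tissue specificity.
Cacna1c, chr4:154051699-154051998, minus strand: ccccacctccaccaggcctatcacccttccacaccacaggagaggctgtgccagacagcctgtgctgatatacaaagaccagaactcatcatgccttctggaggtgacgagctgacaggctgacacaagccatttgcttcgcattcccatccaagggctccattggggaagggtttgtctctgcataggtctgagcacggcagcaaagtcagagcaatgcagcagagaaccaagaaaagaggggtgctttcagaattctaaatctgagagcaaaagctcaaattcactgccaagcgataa
Cacnb3, chr7:131666301-131666600, plus strand: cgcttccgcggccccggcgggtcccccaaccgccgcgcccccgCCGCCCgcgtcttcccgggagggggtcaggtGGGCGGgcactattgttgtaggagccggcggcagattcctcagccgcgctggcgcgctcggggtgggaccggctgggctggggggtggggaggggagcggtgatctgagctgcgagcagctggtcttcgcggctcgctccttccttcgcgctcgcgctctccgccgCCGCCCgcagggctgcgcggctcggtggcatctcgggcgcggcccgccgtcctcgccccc
Cacna2d3, chr16:4918850-4919149, minus strand: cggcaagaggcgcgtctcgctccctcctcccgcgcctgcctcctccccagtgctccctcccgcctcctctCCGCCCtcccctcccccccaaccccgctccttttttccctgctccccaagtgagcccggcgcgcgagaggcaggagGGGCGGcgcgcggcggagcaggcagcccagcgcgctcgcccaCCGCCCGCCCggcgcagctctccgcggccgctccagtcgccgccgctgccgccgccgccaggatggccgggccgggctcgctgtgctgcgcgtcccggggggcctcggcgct
The Cacna1c window had a GC content of 51.7% and no GC box. The Cacnb3 window had 77.7% GC and 3 GC boxes, and the Cacna2d3 window 79.3% GC and 4 GC boxes, overlapping matches included. The GC box was present in 8 of the 10 windows of the family, of which 3 are overlapping windows of Cacna2d1, and in 33.1% of all 33469 windows. By gene, it was in 6 of the 7 members with a window and in 36.0% of all 27457 genes with one. The family windows with a GC box were GC-rich, at the percentile 93.9 of all windows or above. Those without it lay at 49.9 (Cacna1c) and 39.3 (Cacnb2). The share among windows of like GC content is not given. The sequence AAAGGTCA, which NR4A receptors bind as monomers, was searched on both strands and was found in 0 of the 10 windows and in 1.43% of all windows. These are matches of letters only, in windows of a newer assembly than the one used for the FPKM.

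Differential expression was tested with limma on log2(FPKM + 0.1) for the most abundant transcript of each gene, over all 10950 genes above 0 in every sample. A gene was called when its Benjamini-Hochberg adjusted p was below 0.05 and its group means differed at least 1.5-fold. Of the family, 9 genes entered the test, since Cacna1d was listed at 0 in Ad-GFP sample 27. Cacnb3 and Cacna2d3 were upregulated, Cacna1c fell, and the other 6 were not called. The 3 calls among 9 genes stand beside 15.2% of all genes tested, with 7.94% called higher and 7.24% called lower. The median log2 fold change was -0.18 over the 9 genes and -0.025 over all genes tested. The family median is the value of Cacna1g for 1 of its 2 transcripts, which is not reliable by itself. For their sum the log2 fold change of Cacna1g was -0.25. The samples paired by number, and with the sample number as a block 4 of the 9 were called, Cacna1h being added as lower, against 16.7% of all genes, and 2 were lower, against 8.12%. At an adjusted p below 0.05 alone, 3 of the 9 passed, beside 40.9% of all genes. The groups did not overlap for the same 3, beside 21.5% of all genes tested.

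**Figure D1:**
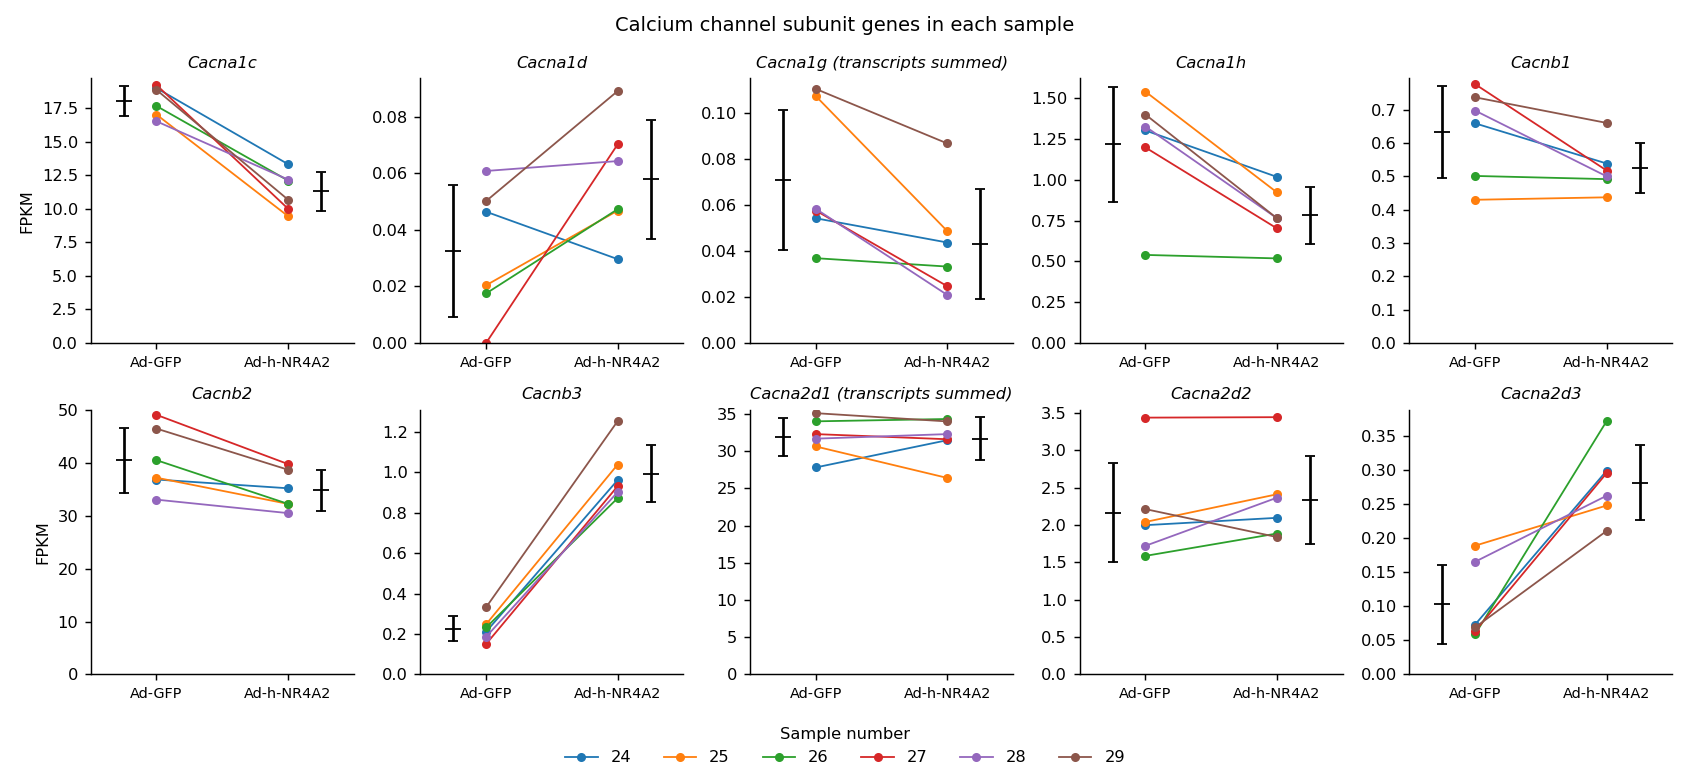
FPKM of the 10 subunit genes in each sample, with a linear axis from 0 for each gene, and with the transcripts of Cacna1g and Cacna2d1 summed. Lines join the samples of the same number, and black marks give the mean ± SD of 6 samples; the groups are separate for Cacna1c, Cacnb3, and Cacna2d3 and overlap for the other 7.

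Per length of transcript, the family was uneven. Cacnb2, Cacna2d1, and Cacna1c were the abundant messages in Ad-GFP samples, at means of 40.6, 31.9 (transcripts summed), and 18.1 FPKM. Cacna2d2 and Cacna1h followed at 2.17 and 1.22 FPKM, Cacnb1 and Cacnb3 at 0.633 and 0.227, and Cacna2d3, Cacna1g (summed), and Cacna1d at 0.103, 0.0708, and 0.0326. Neighbours in this order whose Ad-GFP samples overlapped were Cacnb2 with Cacna2d1, Cacna1h with Cacnb1, Cacnb3 with Cacna2d3, Cacna2d3 with Cacna1g, and Cacna1g with Cacna1d. With Ad-h-NR4A2, Cacnb3 averaged 0.994 FPKM, Cacna1h 0.781, and Cacnb1 0.524. The neighbours whose Ad-h-NR4A2 samples overlapped were Cacnb2 with Cacna2d1, Cacnb3 with Cacna1h, Cacna1h with Cacnb1, and Cacna1d with Cacna1g. Cacnb3 was above Cacna1h in 0 of 6 Ad-GFP samples and in 5 of 6 Ad-h-NR4A2 samples. It was below Cacnb1 in 6 of 6 Ad-GFP samples and above it in 6 of 6 Ad-h-NR4A2 samples.

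Among the pore genes, Cacna1c, which carries the L-type current of ventricular myocytes, was lower with Ad-h-NR4A2 in every sample. In the order of sample numbers, its level was 19.0, 17.0, 17.7, 19.2, 16.5, and 18.9 FPKM with Ad-GFP and 13.3, 9.45, 12.1, 10.0, 12.2, and 10.7 FPKM with Ad-h-NR4A2. The groups did not overlap, and the highest Ad-h-NR4A2 sample, 24, lay below the lowest Ad-GFP sample, 28. The mean fell from 18.1 ± 1.14 to 11.3 ± 1.48 FPKM (SD, n = 6), a ratio of 1.60. The log2 fold change was -0.68 with a standard error of 0.083 (limma, adjusted p = 2.26e-05), and the exact permutation test over every split of the 12 samples gave its smallest possible p of 0.00216 (two-sided). That test leaves the pairing by number out, here and for the genes below. Within pairs of the same number, the Ad-h-NR4A2 level was between 0.520 and 0.737 of the Ad-GFP level. The value was backed by 1768 to 4277 fragments per sample. It lay at the percentile 5.51 of all log2 fold changes tested, and thus among the lower but not the most extreme values. The gene spans chr4:216564927-217184927 in Rn5, the build of the deposited files, and is listed with 1 transcript of 8257 nt, NM_012517, so that alternative exons of this gene could not be compared.

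Markers of the contractile apparatus are given beside this value. Of 5 cardiomyocyte markers measured, 1 was called lower (Myh7), beside 7.24% of all genes, and 3 had an adjusted p below 0.05 (limma), all lower, beside 40.9% of all genes in either direction. Their summed level ranged from 17594 to 22757 FPKM with Ad-GFP and from 15612 to 19211 with Ad-h-NR4A2. Myh6, the main adult rat myosin heavy chain, averaged 1152 and 781 FPKM (log2 fold change -0.56), and Tnnt2 fell by 0.26 on the log2 scale. In RNA of whole cultures, fewer cells of a type and less RNA per cell cannot be told apart. The part of these markers in the fall of Cacna1c was not tested.

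Cacna1h, the T-type pore gene with the higher level here, was lower in 6 of 6 pairs but spread more. Its level was 1.30, 1.54, 0.539, 1.20, 1.33, and 1.40 FPKM with Ad-GFP, against 1.02, 0.922, 0.518, 0.701, 0.764, and 0.763 with Ad-h-NR4A2. Both samples numbered 26 were the lowest of their group, and Ad-GFP sample 26 alone made the groups overlap. The log2 fold change was -0.55 ± 0.22 (SE; limma, adjusted p = 0.0604), so that it was not called, and the exact permutation p was 0.0476 (two-sided). With the sample number as a block the adjusted p was 0.00300, and without Ad-GFP sample 26 it was 0.00182 with a log2 fold change of -0.74. It was called under both. Fragments numbered 91 to 302 per sample. The locus that the files list, chr10:14543704-14605140, is shared with the tryptase gene Tpsg1, which was at 0 in 11 of the 12 samples.

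The remaining pore genes were at trace level. Cacna1d, the L-type pore of the sinoatrial node and atria, was listed at 0.0464, 0.0204, 0.0175, 0, 0.0609, and 0.0502 FPKM with Ad-GFP and at 0.0297, 0.0468, 0.0473, 0.0703, 0.0644, and 0.0892 with Ad-h-NR4A2. These values rest on 38 fragments in all Ad-GFP samples and 65 in all Ad-h-NR4A2 samples, and the groups overlapped (exact permutation test, two-sided, p = 0.0714). Cacna1g, the other T-type pore gene, is listed with 2 transcripts, and in each sample nearly the whole level was assigned to one or the other, so that only the sum was read. The sum was 0.0369 to 0.110 FPKM with Ad-GFP (median 0.0579) and 0.0208 to 0.0868 with Ad-h-NR4A2 (median 0.0384). It was lower in 6 of 6 pairs, with a log2 fold change of -0.25 (95% interval -0.58 to 0.075) and an adjusted p of 0.203 (limma).

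The largest change of the family was that of Cacnb3, which encodes a β subunit best known from brain and smooth muscle. Its level was 0.212, 0.248, 0.232, 0.151, 0.186, and 0.333 FPKM with Ad-GFP and 0.963, 1.04, 0.873, 0.932, 0.903, and 1.25 FPKM with Ad-h-NR4A2. The groups did not overlap, and samples numbered 29 were the highest in both. The mean rose 4.38-fold, from 0.227 ± 0.0624 to 0.994 ± 0.140 FPKM (SD, n = 6), and 3.76-fold to 6.19-fold within pairs. The log2 fold change was 1.75 ± 0.14 (SE; limma, adjusted p = 4.97e-07), at the percentile 98.4 of all genes tested, and the exact permutation p was 0.00216 (two-sided). The level was low in both groups. It rested on 9 to 22 fragments per Ad-GFP sample and on 48 to 68 per Ad-h-NR4A2 sample, and on the log2(FPKM + 1) scale the change was 0.70. The files place the gene at chrX:114818647-114828180 in Rn5, whereas its promoter in GRCr8, printed above, is on chromosome 7.

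Cacnb2, the main β subunit of the heart and the most abundant message of the family, was lower in 6 of 6 pairs by a small amount. The levels were 36.9, 37.3, 40.6, 49.2, 33.1, and 46.6 FPKM with Ad-GFP and 35.3, 32.3, 32.3, 39.8, 30.6, and 38.8 FPKM with Ad-h-NR4A2. The groups overlapped, and sample 27 was the highest and sample 28 the lowest in both. The log2 fold change was -0.21 ± 0.099 (SE; limma, adjusted p = 0.0999). With the sample number as a block the standard error was 0.040 and the adjusted p 0.00136, at a ratio of means of 1.17, and with the block 59.4% of all genes had an adjusted p below 0.05. Cacnb1, the β subunit of skeletal muscle, had a median of 0.678 FPKM with Ad-GFP (0.429 to 0.776) and 0.508 with Ad-h-NR4A2 (0.437 to 0.660). Its log2 fold change was -0.22 (95% interval -0.53 to 0.090; limma, adjusted p = 0.247).

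**Figure D2:**
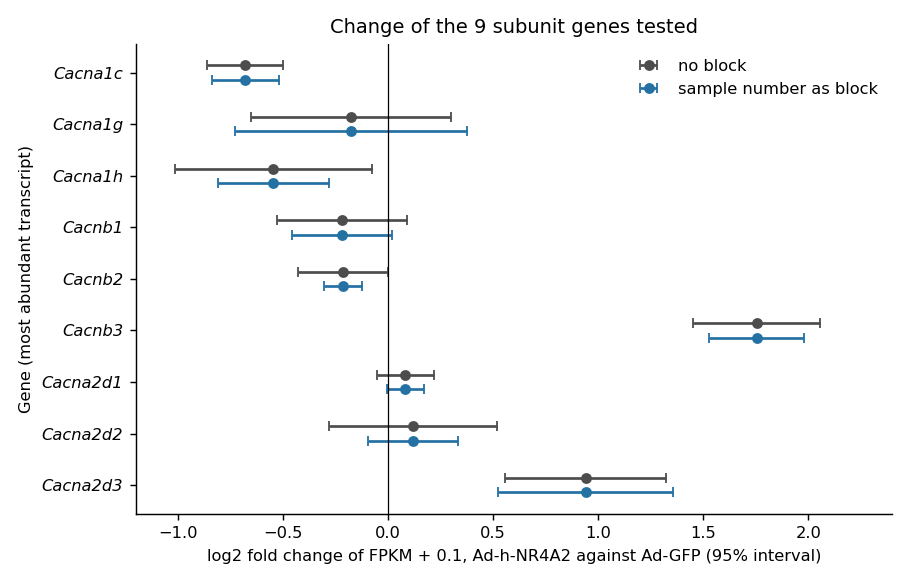
Log2 fold change of FPKM + 0.1, Ad-h-NR4A2 against Ad-GFP, with its 95% interval for the 9 subunit genes tested. Values are without (grey) and with (blue) the sample number as a block. Each gene is shown by its most abundant transcript, also Cacna1g and Cacna2d1. Intervals without the block exclude 0 for Cacna1c, Cacna1h, Cacnb2, Cacnb3, and Cacna2d3, before adjustment over all genes, and the block narrows most of them but not those of Cacna1g and Cacna2d3.

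Of the α2δ genes, Cacna2d3, an auxiliary subunit known mainly from neurons, was upregulated. Its level was 0.0731, 0.189, 0.0589, 0.0636, 0.165, and 0.0690 FPKM with Ad-GFP and 0.299, 0.248, 0.371, 0.295, 0.262, and 0.210 FPKM with Ad-h-NR4A2. The groups did not overlap, although Ad-GFP samples 25 and 28 stood above the other 4 and close to the lowest Ad-h-NR4A2 sample. The mean rose 2.73-fold, from 0.103 ± 0.0579 to 0.281 ± 0.0550 FPKM (SD, n = 6). The log2 fold change was 0.94 ± 0.18 (SE; limma, adjusted p = 8.90e-04), and the exact permutation p was 0.00216 (two-sided). Within pairs the ratio ranged from 1.31 in pair 25 to 6.31 in pair 26. It rested on 4 to 14 fragments per Ad-GFP sample and on 15 to 28 per Ad-h-NR4A2 sample. The gene spans chr16:4812761-5730475 in Rn5.

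Cacna2d1, the main α2δ subunit of the heart and the target of gabapentin, did not differ detectably. Summed over its 3 transcripts it was 27.8 to 35.1 FPKM with Ad-GFP (median 32.0) and 26.4 to 34.3 with Ad-h-NR4A2 (median 32.0). The log2 fold change of the sum was -0.012, with a 95% interval from -0.16 to 0.14 (limma, adjusted p = 0.910), so that a change of the size of that of Cacna1c lies outside the interval. NM_012919 took a median share of 51.9% of the sum with Ad-GFP, against 55.3% with Ad-h-NR4A2, NM_001110847 took 47.2% and 44.1%, and NM_001110848 took at most 1.59% in any sample. Cacna2d2, expressed in brain and in heart, was at 1.59 to 3.44 FPKM with Ad-GFP (median 2.02) and at 1.84 to 3.44 with Ad-h-NR4A2 (median 2.23). Both samples numbered 27 were far above the others. Its log2 fold change was 0.12 (95% interval -0.28 to 0.52; limma, adjusted p = 0.645).

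The levels within a class were also set beside each other in each sample, without a test. The summed level of the α1 genes was 18.0 to 20.5 FPKM with Ad-GFP and 10.5 to 14.4 with Ad-h-NR4A2, with no overlap, and Cacna1c made up 90.3% to 96.7% of it in every sample. The β genes summed to 34.0 to 50.1 FPKM and 32.0 to 41.3 FPKM, and the α2δ genes to 29.9 to 37.4 and 29.1 to 36.6, with overlap in both classes. Cacnb2 per Cacna1c had a median of 2.24 with Ad-GFP, against 3.04 with Ad-h-NR4A2 and was higher in 6 of 6 pairs. Cacna2d1 per Cacna1c was 1.46 to 1.93 with Ad-GFP and 2.36 to 3.18 with Ad-h-NR4A2, without overlap. The share of Cacnb3 in the β messages was 0.301% to 0.699% with Ad-GFP and 2.26% to 3.08% with Ad-h-NR4A2, while Cacnb2 remained the bulk at a median of 98.0% and 95.8%. Cacna2d3 made up at most 1.02% of the α2δ messages in any sample. The upregulated subunits were thus minor parts of their classes in both groups.

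**Figure D3:**
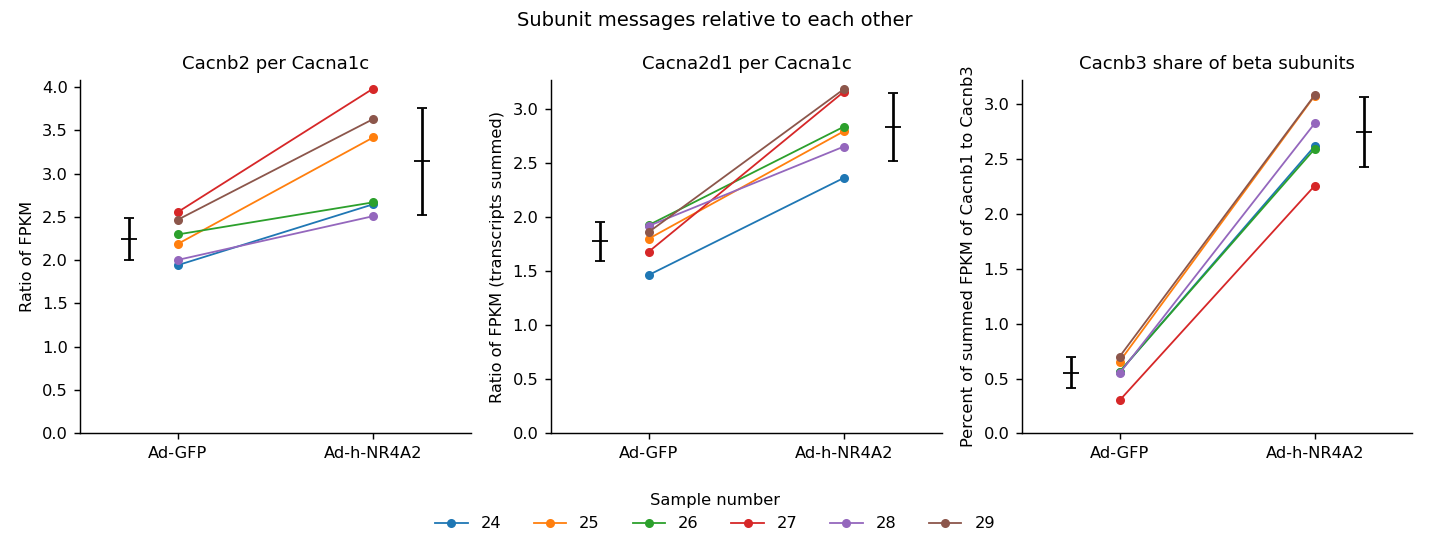
Ratio of Cacnb2 to Cacna1c FPKM, ratio of Cacna2d1 (transcripts summed) to Cacna1c FPKM, and the percent of Cacnb3 in the summed FPKM of the 3 β genes, in each sample. Lines join the samples of the same number and black marks give the mean ± SD of 6 samples; all 3 quantities are higher with Ad-h-NR4A2 in each of the 6 pairs, and only the first overlaps between groups.

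Few of the other subunit genes could be tested. Of 16 further α1, β, α2δ, and γ genes, 5 were listed at 0 in all samples (Cacna1f, Cacna2d4, Cacng1, Cacng2, Cacng3), which can also be a failed estimate. Of the 16, 4 were tested, and 0 were called by limma, beside 15.2% of all genes tested. None of the 4 had an unadjusted p below 0.05, and with 4 genes 0 calls say little about them. Cacng6, a γ subunit of striated muscle, was the most abundant of them at 7.56 ± 2.80 and 7.85 ± 2.28 FPKM (adjusted p = 0.808). Cacna1a, the P/Q-type pore of neurons, was at 1.49 ± 0.435 and 1.65 ± 0.633 FPKM (adjusted p = 0.770). Cacnb4, a β subunit of brain, stayed under 0.103 FPKM in every sample.

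The RGK GTPases bind β subunits and restrain the L-type current. Of the 4, Rrad was at 278 ± 107 FPKM with Ad-GFP, against 294 ± 141 with Ad-h-NR4A2 (limma, adjusted p = 0.909), and it varied from 146 to 550 FPKM over single samples. Rem2 averaged 0.533 and 0.609 FPKM and Gem 0.514 and 0.432 FPKM, and Rem1 was not tested. Of the 3 tested, 0 were called, beside 15.2% of all genes tested, and 0 had an unadjusted p below 0.05. The STAC adaptors Stac2 and Stac3, which support the skeletal muscle channel, were below the filter.

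Of 20 genes for proteins that act on or beside the L-type channel, all were tested, 3 were called higher and 2 lower, beside 7.94% and 7.24% of all genes. The median log2 fold change of these 20 was -0.067. Ryr2, the release channel that L-type calcium opens, went from 85.7 ± 9.90 to 53.4 ± 7.56 FPKM without overlap (log2 fold change -0.68, adjusted p = 8.46e-05), a fall of the size seen for Cacna1c. These values are of the more abundant of its 2 listed transcripts, and their sum is not given. Bin1, which shapes the T-tubules where L-type channels cluster, fell from 7.01 ± 2.49 to 3.75 ± 1.07 FPKM (log2 fold change -0.86, adjusted p = 0.00829), with overlap. Adrb1, a β-adrenergic receptor whose signaling leads to phosphorylation of the channel, rose from 9.31 ± 2.11 to 14.7 ± 2.37 FPKM without overlap (adjusted p = 0.00340). Calm2, which encodes calmodulin, the calcium sensor bound to the pore, rose from 72.6 ± 10.3 to 128 ± 19.9 FPKM (adjusted p = 7.00e-05), also for the more abundant of 2 transcripts. Abundant partners that were not called included Calm3, also a calmodulin gene, and Prkaca, the catalytic subunit of protein kinase A. Calm3 had means of 176 and 162 FPKM and Prkaca of 163 and 133 FPKM, and the adjusted p of Prkaca was 2.14e-04 at a ratio below 1.5.

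**Figure D4:**
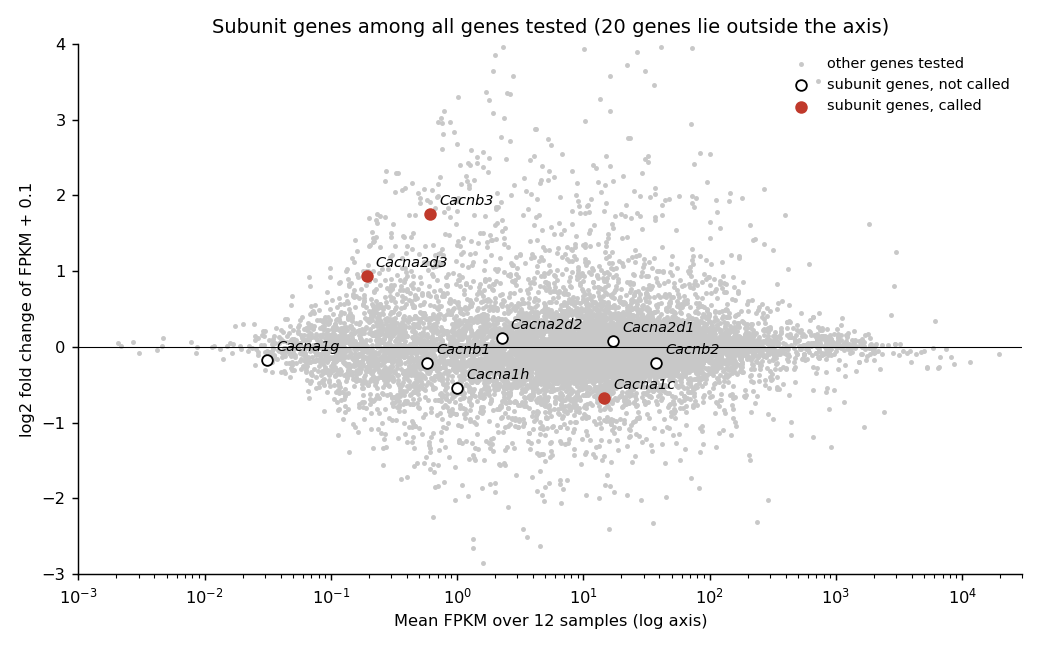
Log2 fold change of FPKM + 0.1, Ad-h-NR4A2 against Ad-GFP, against mean FPKM over the 12 samples (log axis), for all 10950 genes tested; 20 genes lie outside the axes. Red points are the called subunit genes, Cacnb3 and Cacna2d3 above and Cacna1c below. Open circles are the 6 that were not called, which lie between -0.55 and 0.12. Each gene is shown by its most abundant transcript, also Cacna1g and Cacna2d1.

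Since Cacnb3 and Cacna2d3 are known from other cells than ventricular myocytes, the marker levels are given beside their rise. Of 5 neuron and Schwann cell markers, Snap25 was at 0 in all samples, Syt1 was at 0 in 10 of 12, and Tubb3 was called lower, and their summed level was 2.18 to 3.79 FPKM with Ad-GFP and 1.18 to 2.16 with Ad-h-NR4A2. The smooth muscle and pericyte sum was 11.7 to 24.2 and 8.75 to 20.9 FPKM, with Myh11 called lower and none of the 5 called higher. The sum of 5 macrophage and leukocyte markers was 6.15 to 17.4 FPKM with Ad-GFP and 39.0 to 45.9 with Ad-h-NR4A2, and Csf1r (10.1 and 40.2 FPKM) and Cd14 (0.222 and 1.19 FPKM) were called higher. Cd68 was at 0.463 and 0.482 FPKM and Adgre1 at 0.322 and 0.275, and neither was called. Ptprc was at 0.0258 and 0.0218 FPKM and was not tested, since it was at 0 in 1 sample. The pacemaker and conduction sum was 1.51 to 2.76 and 1.01 to 1.94 FPKM, with 0 called (limma; Hcn4 alone had an unadjusted p below 0.05). The fibroblast sum was 9.12 to 30.4 and 5.84 to 27.1 FPKM, with Col3a1 called lower, and the endothelial sum 5.47 to 17.1 and 4.39 to 16.2 FPKM, with 0 called and 0 at an unadjusted p below 0.05. In the blocked comparison, Col1a1 was also called lower (limma, adjusted p = 0.00616). Pdgfra, Kdr, and Hcn4 had adjusted p values of 0.0101, 0.00409, and 0.00296 in it, at ratios of means below 1.5, all lower. Of the fibroblast markers, Col1a2 was listed at 0 in all samples, which can also be a failed estimate. Among all genes tested, 15.2% were called without the block and 16.7% with it. Whether the cells that carried Csf1r and Cd14 also carried Cacnb3 or Cacna2d3 was not tested.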

How the data were processed

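Total RNA of 12 ARVM samples was measured by stranded mRNA sequencing, with all samples in 1 run. The authors aligned paired-end reads to Rn5 with STAR and quantified RefSeq transcripts with Cufflinks. The FPKM deposited by the authors are listed per transcript, scaled to transcript length and mapped fragments. The study describes 6 independent isolations from different rats, and the groups and sample numbers come from the labels.

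For each gene the transcript of highest mean level was taken. Genes above 0 in all 12 samples were compared with limma 3.58.1 in R 4.3.3 on log2(FPKM + 0.1), by lmFit and eBayes with trend, two-sided, with Benjamini-Hochberg adjustment over 10950 genes. The pseudocount makes fold changes of low genes smaller than the ratio of means. Single genes were also compared by the exact permutation test over every split of the 12 samples into equal groups. It treats the samples as exchangeable and takes no account of the sample number. The limma comparison was tested on simulated data. Python 3.11.15 with SciPy 1.17.1, NumPy 2.4.6, pandas 2.3.3, and Matplotlib 3.10.9 served for the rest.

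The labels do not say what the sample number stands for. Deviations from the group means correlated between same-numbered samples at 0.347 to 0.623 in all 6 pairs, so that the numbers were taken to pair the samples. The main comparison follows the study in leaving the pairs out, and the block was an alternative. No more than 0.146% of genes had equal values in any 2 samples.

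FPKM are not counts. Low values are whole multiples of what 1 fragment is worth, given transcript length, and 99.2% to 99.8% of the values of up to 6 fragments per sample came out whole within 0.05. Fragment numbers follow from this, only for genes with 1 transcript, and cover counting error only.

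The genes of the family, the lists of other subunits, partners, and markers, and the alternatives were chosen with earlier results of these data known. All 10 genes of the family are described. Of the listed genes, those called and up to 3 others of each list with the highest mean FPKM are named, and for the most abundant gene of the family the 5 genes whose deviations from group means correlate best with its own. Alternatives were pseudocounts of 1 and 0.01, no filter, a filter at a mean of 1 FPKM, quantile normalization, the TPM scale, transcripts summed, every transcript by itself, limma without trend, the replicate block, each sample left out in turn, and, chosen after seeing the data, a minimum of 0.001 FPKM in every sample. Promoter windows are those of RefSeq for GRCr8. Ttn and Stac were not analysed here, and some listed partner genes are counted but not reported by themselves.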

Additional observations from a re-analysis of the deposited data

Results flagged for a closer look

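In each group of 6 samples, the highest and lowest values of the 10 genes and of the 5 partner genes called were compared with the rest by the gap to the nearest sample over the whole range, and 3 of 30 groups had a sample far from the others; chance alone gives about 1 in 20. Cacna1h was at 0.539 FPKM in Ad-GFP sample 26, whereas the nearest other Ad-GFP sample was at 1.20 and the median at 1.31. The Ad-h-NR4A2 sample of the same number, at 0.518 FPKM, was also the lowest of its group. Cacna2d2 was at 3.44 FPKM in Ad-GFP sample 27, with the nearest other at 2.21, and likewise at 3.44 FPKM in Ad-h-NR4A2 sample 27, with the nearest other at 2.41. These samples share their number between groups, and what sets them apart was not tested.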

How the results depend on the processing

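Cacna1c, Cacnb3, and Cacna2d3 were called under every alternative in which they were tested, with log2 fold changes of -0.73 to -0.63, 0.70 to 2.11, and 0.22 to 1.48. Requiring a mean FPKM of at least 1 left 4 genes of the family, of which 1 was called, 0 higher, and 1 had an adjusted p below 0.05, since Cacnb3 and Cacna2d3 are below that level. Calls lower numbered 2 instead of 1 with a pseudocount of 1, quantile normalization, and the replicate block, and 1 to 2 when single samples were left out. The second gene was Cacna1h, whose adjusted p was 0.0411, 0.0421, and 0.00300 under these settings, 0.00182 without Ad-GFP sample 26, and 0.0436 without Ad-h-NR4A2 sample 24, in a range of 0.00182 to 0.129. With the block, 5 genes instead of 3 had an adjusted p below 0.05, Cacna1h and Cacnb2 being added. Among all genes tested, 59.4% passed this threshold with the block and 40.9% without it. The block changed no other call of the family. Tested transcript by transcript, 3 were called of 12, beside 14.7% of all transcripts. Calls lower numbered 2 with a pseudocount of 1 and the block and 1 to 2 when single samples were left out. With the block, 5 transcripts had an adjusted p below 0.05, and the share of all transcripts is not given for that setting. Cacna2d1 changed sign when its transcripts were summed, to -0.012 from 0.083, and was called under neither. Among the other subunits and partners, 4 to 6 were called under the alternatives, and the block added Akap5 to the genes called higher. Cacna1d and Cacna2d3 rest on 0 to 16 and 4 to 28 fragments per sample.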

Other observations

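Genes next to the called members on the Rn5 map were looked up after the values had been seen. The nearest listed gene before Cacnb3, at a distance of 23683 nt, was Adcy6, a main adenylyl cyclase of the heart. It rose from 17.6 ± 4.77 to 56.7 ± 4.76 FPKM (SD, n = 6), without overlap. Its log2 fold change was 1.72 (limma, adjusted p = 1.13e-06). The mean of Adcy6 rose 3.22-fold, against 4.38-fold for Cacnb3, whose log2 fold change of 1.75 the pseudocount makes smaller. Ddx23, an RNA helicase gene 551 nt after Cacnb3, was at 55.1 ± 3.91 and 47.6 ± 4.51 FPKM (log2 fold change -0.21, adjusted p = 0.0194) and was not called. Before Cacna2d3, at 377207 nt, lay Wnt5a, a secreted signaling ligand, which rose from 4.60 ± 0.671 to 17.0 ± 0.689 FPKM (log2 fold change 1.87, adjusted p = 2.24e-09). Selk, 236582 nt after Cacna2d3, was at 163 ± 4.60 and 155 ± 7.30 FPKM and was not called. Before Cacna1c, at 107579 nt, Zfp9 rose from 1.20 ± 0.0873 to 1.87 ± 0.208 FPKM (adjusted p = 2.39e-04), opposite to Cacna1c, and the next named gene after it, Cacna2d4, was listed at 0 in all samples. Of all genes tested, 7.94% were called higher.

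The genes whose deviations from the group means were most like those of Cacnb2 over the 12 samples, among the 8977 genes that averaged 1 FPKM or more, were Slc30a7 (r = 0.981), Arl2 (0.969), Mgat5 (0.966), Atp1b1 (0.954), and Rps6ka3 (0.951). Within the family the correlation with Cacnb2 ranged from -0.56 for Cacna2d3 to 0.57 for Cacna2d2, and it was 0.11 for Cacna1c. The 12 deviations share the 6 sample numbers and are given as a description.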
